A study of Mus musculus with 12 samples.

Results

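A set of 7 of the 46078 genes counted was examined in the ileum of mice given the dioxin 2,3,7,8-tetrachlorodibenzo-p-dioxin, or TCDD. They are Car1, Tgm3, Aqp8, Mptx1, Atp12a, Cyp2d34 and 1810065E05Rik. They were chosen from these data because they were high in the libraries at 10 μg/kg and at or near 0, or much lower, elsewhere, so their difference at that dose is described and not tested. Symbols were mapped from Ensembl gene identifiers with the GENCODE M21 annotation of GRCm38.

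The study asked how gene expression in the intestine changed with the dose of TCDD, which activates the aryl hydrocarbon receptor (AhR). Male C57BL/6 mice received TCDD at 3, 10 or 30 μg/kg, or sesame oil vehicle, by gavage, with 7 treatments at 4 day intervals starting at an age of 28 days, and the labels give 56 days as the age at the end. RNA came from scrapings of the proximal ileal epithelium, a bulk sample that holds every cell type of the mucosa. Each of the 4 groups had 3 libraries, described as biological replicates, and the replicate numbers used here follow accession order and only name a library. No allele or other agent is named for any group, so by their labels the groups differed in dose alone.

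Transport of water, bicarbonate, potassium and sodium across the surface epithelium is what the large intestine is best known for. Carbonic anhydrases supply bicarbonate and protons for that transport, aquaporins let water through membranes, and the colonic hydrogen-potassium pump recovers potassium. The posterior Hox genes, which set position along the gut in the embryo, stay on in the colon and are largely off in the small intestine. The name colon-type for the 7 genes is such background knowledge, since the series holds no colon library against which it could be checked.

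Gene counts summed to between 11695887 and 22180274 per library, and to between 13713866 and 15733850 at 10 μg/kg, where 3 counts equal 0.191 to 0.219 CPM, counts scaled to a common library size. Cyp1a1, the classical AhR target, was 19.0 to 27.5 CPM in vehicle, 22.2 to 141 CPM at 3 μg/kg, 872 to 1333 CPM at 10 μg/kg and 2608 to 3251 CPM at 30 μg/kg. Markers of the small intestine were shared by all groups only in part. Lct, Sis and Gata4, which mark the absorptive cells of the small intestine, were high in all 12 libraries, with Gata4 between 143 and 170 CPM. Fabp6, the bile acid binding protein that defines the distal ileum, had 390 to 556 counts in the libraries at 3 μg/kg and 0 to 5 counts in the 9 others. Fgf15 and Slc10a2, also ileal bile acid genes, had 24 to 32 and 93 to 218 counts at 3 μg/kg against 0 to 3 and 8 to 51 elsewhere. Slc51a, Slc51b and Nr1h4 of the same list overlapped between the groups. The libraries at 3 μg/kg thus stood apart from the rest in several ileal markers, and comparisons with them carry that difference. Dbp, a clock output gene, was 64.4 CPM in replicate 1 at 10 μg/kg and 1.16 and 0.980 CPM in replicates 2 and 3.

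RefSeq promoters were at hand for 4 of the 7 genes (GRCm38.p6, plus strand, the 250 bases before the start). They are shown because the 4 genes were high in the same libraries. Capitals mark matches, on either strand, to GCGTG, the core bound by the AhR, and to TTTAT, the core bound by caudal-type homeobox factors of the intestine. The windows are chr2:130012090-130012339 for Tgm3, chr7:123462044-123462293 for Aqp8, chr1:174330268-174330517 for Mptx1 and chr11:58420861-58421110 for 1810065E05Rik.
Tgm3: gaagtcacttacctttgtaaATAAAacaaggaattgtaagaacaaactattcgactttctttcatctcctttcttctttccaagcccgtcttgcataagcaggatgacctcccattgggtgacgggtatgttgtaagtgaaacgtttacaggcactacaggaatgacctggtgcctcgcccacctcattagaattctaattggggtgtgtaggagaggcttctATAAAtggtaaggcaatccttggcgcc
Aqp8: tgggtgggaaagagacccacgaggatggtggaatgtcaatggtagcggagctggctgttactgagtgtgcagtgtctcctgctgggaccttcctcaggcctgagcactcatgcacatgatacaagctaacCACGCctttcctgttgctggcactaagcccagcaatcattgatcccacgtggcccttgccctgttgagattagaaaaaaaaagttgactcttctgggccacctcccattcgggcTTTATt
Mptx1: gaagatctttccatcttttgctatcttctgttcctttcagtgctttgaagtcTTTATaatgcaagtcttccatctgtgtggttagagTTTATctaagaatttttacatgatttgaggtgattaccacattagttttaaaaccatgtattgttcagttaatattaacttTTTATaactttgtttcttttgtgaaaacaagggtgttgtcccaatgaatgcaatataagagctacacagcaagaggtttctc
1810065E05Rik: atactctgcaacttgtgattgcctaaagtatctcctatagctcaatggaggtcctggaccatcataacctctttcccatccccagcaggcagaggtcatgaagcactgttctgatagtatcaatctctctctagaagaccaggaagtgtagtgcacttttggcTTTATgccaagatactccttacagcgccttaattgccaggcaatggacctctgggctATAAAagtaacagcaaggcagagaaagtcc
TTTAT or its complement was in 4 of the 4 windows, against 37.3% of 32851 promoter windows of this length. GCGTG was in 1 of the 4, that of Aqp8, against 28.2% of all windows. TATAAA, the TATA box, which contains the complement of TTTAT, was in 3 of the 4 against 12.4%. A match of letters is a description only and does not show that a factor binds.

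Ion transport and acid-base genes are described first, and of these Car1 was the most abundant. Car1 encodes carbonic anhydrase 1, a cytosolic zinc enzyme that interconverts CO2 and bicarbonate, and lies on chromosome 3 from 14766216 to 14808368 on the minus strand. Car1 had 774, 857 and 714 counts in replicates 1, 2 and 3 at 10 μg/kg and 0 counts in each of the 9 other libraries. Not 1 read of the gene was counted outside the 10 μg/kg group. Its level there was 53.9 ± 9.36 CPM (SD, n = 3). Against the limit of 3 counts over a group, this was at least 1037-fold higher than in vehicle, at least 842-fold higher than at 3 μg/kg and at least 872-fold higher than at 30 μg/kg. These limits and the intervals on folds below cover counting error only, and in bulk RNA more cells of a type and more RNA per cell cannot be told apart.

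Atp12a encodes the catalytic subunit of the nongastric hydrogen-potassium pump and lies on chromosome 14 from 56365068 to 56388550. Atp12a had 31, 21 and 25 counts at 10 μg/kg and 0 counts in the 9 other libraries. The pattern was that of Car1 at a lower level, 1.76 ± 0.407 CPM (SD, n = 3). This was at least 34.0-fold higher than in vehicle, at least 27.7-fold higher than at 3 μg/kg and at least 28.6-fold higher than at 30 μg/kg. Gm10873, an antisense transcript, overlaps Atp12a, and the strand setting of the counting is not given in the sources used here.

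Aqp8, a water channel of absorptive epithelium, lies on chromosome 7 from 123462291 to 123468004. Aqp8 had 78, 65 and 79 counts at 10 μg/kg, 5, 2 and 1 in vehicle, 0, 1 and 0 at 3 μg/kg and 7, 1 and 15 at 30 μg/kg. The highest library elsewhere, replicate 3 at 30 μg/kg, reached 0.821 CPM against a lowest value of 4.72 CPM at 10 μg/kg. The level of 5.06 ± 0.489 CPM (SD, n = 3) was 36.8-fold that in vehicle (95% interval 18.4 to 86.3) and 10.8-fold that at 30 μg/kg (7.00 to 17.3). Against the single count at 3 μg/kg the ratio was 239 (42.5 to 9490).

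Barrier genes follow. Tgm3 encodes transglutaminase 3, which cross-links proteins in epithelial surfaces, and lies on chromosome 2 from 130012349 to 130050399. Tgm3 had 135, 121 and 171 counts at 10 μg/kg, 4, 1 and 1 in vehicle, 0 in all 3 libraries at 3 μg/kg, and 3, 1 and 1 at 30 μg/kg. No library elsewhere passed 4 counts. The level of 9.66 ± 0.849 CPM (SD, n = 3) was 94.4-fold that in vehicle (43.0 to 259), at least 153-fold higher than at 3 μg/kg and 95.3-fold that at 30 μg/kg (40.5 to 295).

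Mptx1 encodes mucosal pentraxin 1, of the family of C-reactive protein, and lies on chromosome 1 from 174330518 to 174332873. Mptx1 had 41, 55 and 56 counts at 10 μg/kg, 4, 1 and 5 in vehicle, 2, 1 and 6 at 3 μg/kg and 2, 0 and 1 at 30 μg/kg. Traces were thus counted in 8 of the 9 other libraries, none above 6 counts. The level of 3.46 ± 0.520 CPM (SD, n = 3) was 20.2-fold that in vehicle (10.7 to 42.9), 18.2-fold that at 3 μg/kg (9.34 to 40.6) and, against 3 counts, 56.5-fold that at 30 μg/kg (19.0 to 277). Its transcript is 92.3% identical to that of Mptx2 over 795 of 799 bases, so the split of reads between the pair is uncertain. Mptx2 had 426 to 3058 counts across the 12 libraries, and its highest group mean was at 30 μg/kg, where Mptx1 was lowest.

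Cyp2d34 encodes a cytochrome P450, a class of enzymes that oxidise lipids and foreign compounds, and lies on chromosome 15 from 82615965 to 82620946. Cyp2d34 had 20, 24 and 11 counts at 10 μg/kg, 2, 0 and 0 in vehicle, 0, 0 and 1 at 3 μg/kg and 0 in all 3 libraries at 30 μg/kg. Replicate 3 was the lowest of the 3 high libraries, at 0.674 CPM, and still above the highest value elsewhere, 0.113 CPM. The level of 1.29 ± 0.550 CPM (SD, n = 3) was 36.5-fold that in vehicle (9.63 to 309), from 2 counts, and at least 20.5-fold higher than at 30 μg/kg. The gene shares 91.9% identity with Cyp2d11, 90.0% with Cyp2d10 and 89.4% with Cyp2d9 over most of its transcript, so its counts are uncertain. Those relatives had 0 to 9 counts in any library.

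The seventh gene, 1810065E05Rik, has no established role that is given here and lies on chromosome 11 from 58421111 to 58426024. 1810065E05Rik had 227, 246 and 227 counts at 10 μg/kg, 28, 39 and 23 in vehicle, 52, 51 and 71 at 3 μg/kg and 39, 17 and 33 at 30 μg/kg. It was the exception among the 7, being counted in every library. Its level of 16.0 ± 1.99 CPM (SD, n = 3) was 10.3-fold that in vehicle (8.27 to 13.0), 4.33-fold that at 3 μg/kg (3.67 to 5.15) and 8.78-fold that at 30 μg/kg (7.03 to 11.1).

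**Figure D1:**
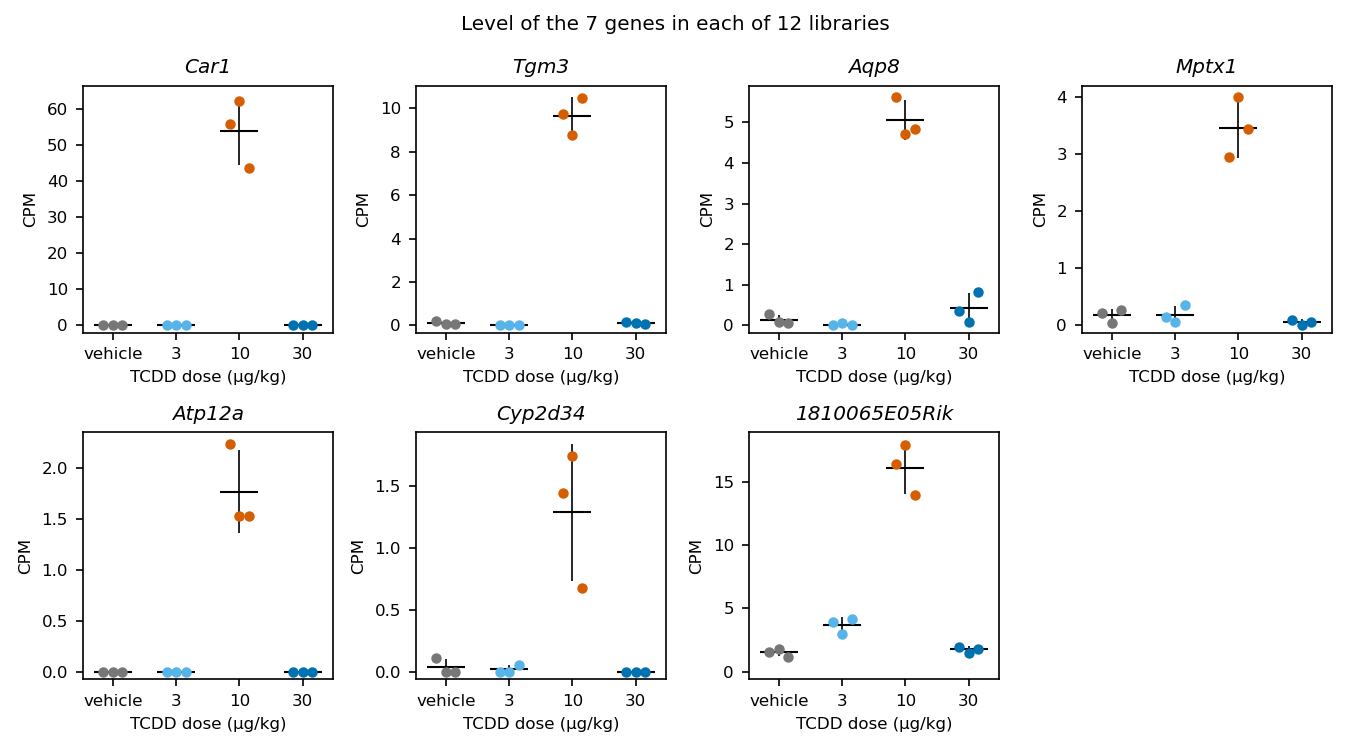
CPM (y axis, linear, a separate scale in each panel) of the 7 genes in each of the 12 libraries by TCDD dose (x axis), with points for libraries, horizontal lines for group means and vertical lines for ± 1 SD (n = 3, cut at 0). In every panel the 3 libraries at 10 μg/kg lie above the 9 others, and only 1810065E05Rik stays well above 0 elsewhere, with 1.53 CPM in vehicle and 3.69 CPM at 3 μg/kg.

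Because the rule asked for it, the lowest library at 10 μg/kg exceeded the highest of the 9 others for 7 of 7 genes. Among all 15823 genes tested, 0.544% had their 3 libraries at 10 μg/kg above all 9 others, against 1.23% for vehicle, 0.727% for 3 μg/kg and 6.08% for 30 μg/kg, and nothing is read from the count of 7. All 7 passed the filter on low counts, but only 1810065E05Rik passed it without the libraries at 10 μg/kg. The rule names no threshold. By this contrast 1810065E05Rik was the least separated of the 7, with 13.9 CPM in its lowest library at 10 μg/kg against 4.17 CPM in the highest elsewhere. Genes of like contrast that were not chosen were Ccn3 (1.41 against 0.294 CPM), Hao2 (1.35 against 0.324 CPM) and Fa2h (2.57 against 0.755 CPM), named after their values were seen. In the test over all genes, 7 were called higher at 10 μg/kg than in vehicle (0.487% of all genes), 6 than at 3 μg/kg (0.145%), and 7 lower at 30 than at 10 μg/kg (0.607%). The rule used these contrasts and they carry no further weight. A gene was called at an adjusted p below 0.05 and a change of at least 1.5-fold in the quasi-likelihood test of edgeR.

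**Figure D2:**
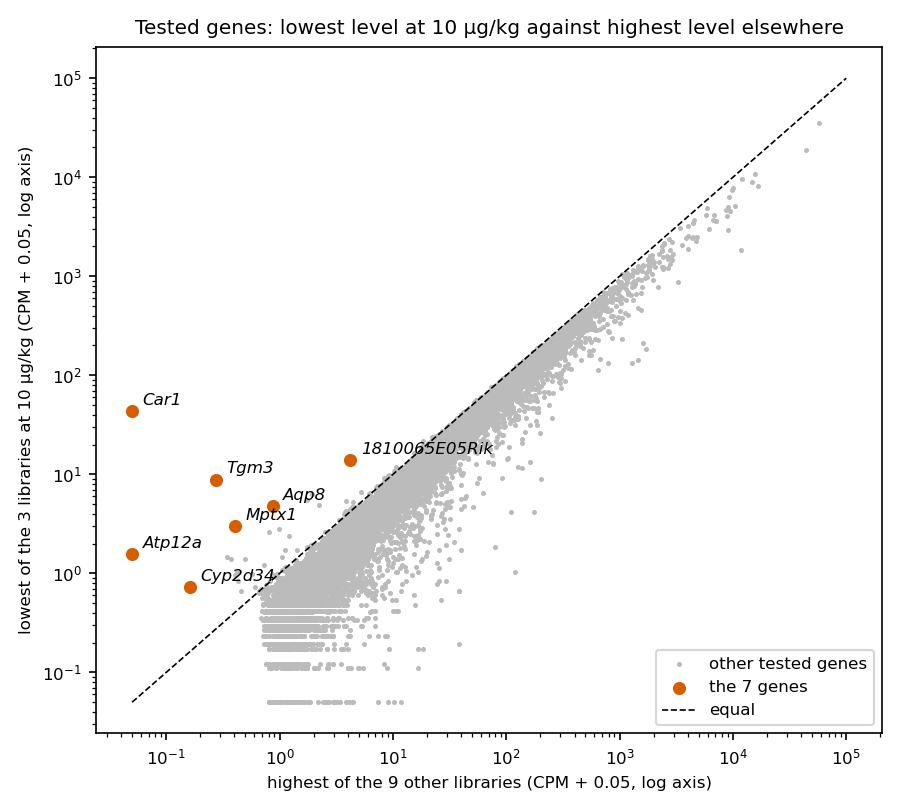
Lowest CPM among the 3 libraries at 10 μg/kg (y axis) against the highest CPM among the 9 other libraries (x axis) for all 15823 tested genes, both with 0.05 added on log axes. Orange points are the 7 genes, grey points the others, and the dashed line marks equal values, above which 0.544% of genes lie. Car1 and Atp12a sit at the left edge because they had no count in the 9 other libraries.

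Relative levels among the 7 genes were similar in the 3 libraries at 10 μg/kg. Car1 took 59.3% (95% Wilson interval 56.6 to 61.9), 61.7% (59.1 to 64.2) and 55.7% (52.9 to 58.3) of their summed counts of 1306, 1389 and 1283 in replicates 1, 2 and 3. 1810065E05Rik took 17.4%, 17.7% and 17.7%, which differed by less than their intervals. Tgm3 varied most among the abundant ones, with 10.3% (8.80 to 12.1), 8.71% (7.34 to 10.3) and 13.3% (11.6 to 15.3), so replicate 3 held more Tgm3 and less Car1 than replicate 2 beyond counting error. The other genes took 3.14% to 4.36% (Mptx1), 4.68% to 6.16% (Aqp8), 1.51% to 2.37% (Atp12a) and 0.857% to 1.73% (Cyp2d34). Per kilobase of exon, the level at 10 μg/kg ran from Car1 (43.2 CPM per kb) and 1810065E05Rik (17.3) through Mptx1 (4.33), Aqp8 (3.20) and Tgm3 (2.34) to Cyp2d34 (0.463) and Atp12a (0.439). In that order the libraries of neighbouring genes overlapped only for Cyp2d34 and Atp12a.

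**Figure D3:**
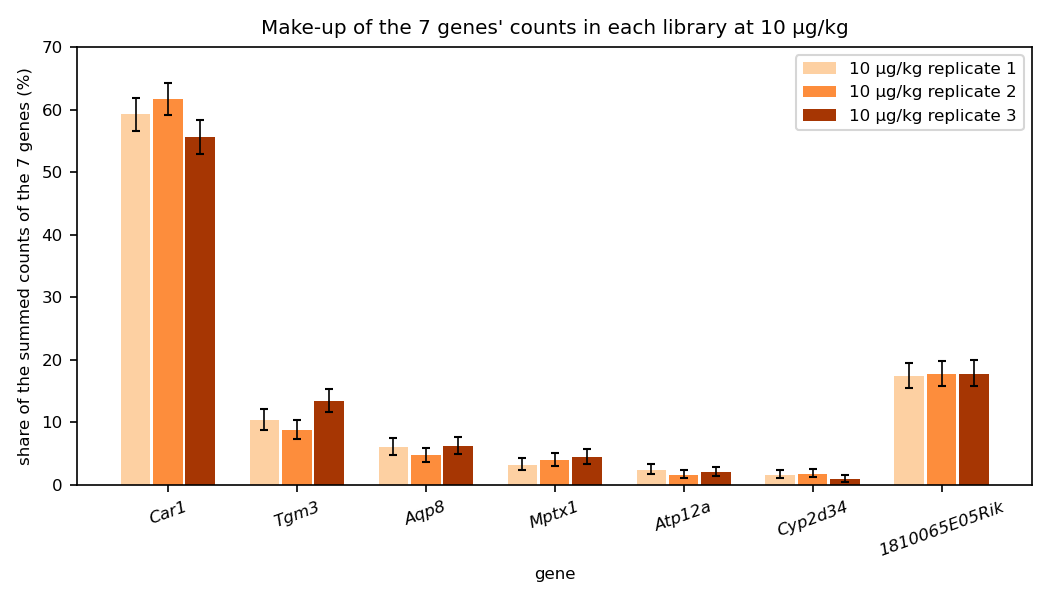
Share of the summed counts of the 7 genes (y axis, percent) taken by each gene (x axis) in the 3 libraries at 10 μg/kg, as bars by replicate with 95% Wilson intervals. Car1 took 55.7% to 61.7% and 1810065E05Rik 17.4% to 17.7%, and the order of the genes was nearly alike in the 3 libraries.

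The spread of the 7 genes across the replicates at 10 μg/kg differed between genes. Coefficients of variation were 8.79% for Tgm3, 9.66% for Aqp8, 12.4% for 1810065E05Rik, 17.4% for Car1, 23.1% for Atp12a and 42.8% for Cyp2d34, against a median of 11.3% over tested genes of at least 1 CPM there. Mptx1 lay between 1810065E05Rik and Car1, and the widest spread was in the 2 scarcest genes. Their summed level was 94.0, 101 and 78.6 CPM in replicates 1, 2 and 3, and between 1.58 and 4.58 CPM in the 9 other libraries. No library at 10 μg/kg carried the set alone. Dbp was 64.4 CPM in replicate 1 and 1.16 and 0.980 CPM in replicates 2 and 3 at 10 μg/kg, and its relation to the sum was not tested. Over the 12 libraries, pairs among the 7 genes had Pearson correlations of log2 CPM from 0.78 (Aqp8 and 1810065E05Rik) to 1.00 (Car1 and Atp12a), a description that rests on the contrast used by the rule and on shared libraries.

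The rule set the level at 10 μg/kg against the other groups and did not set those groups against each other. It did choose genes scarce there, and 6 of the 7 entered the test only through their counts at 10 μg/kg, so for these 6 a comparison of 3 or 30 μg/kg with vehicle says little. At 3 μg/kg, 1810065E05Rik alone was called, against 0.228% of all genes and 0.0569% called higher. It was higher, at 3.69 ± 0.629 CPM against 1.53 ± 0.301 CPM in vehicle (SD, n = 3 each), with a log2 fold change of 1.26 (SE 0.21, adjusted p = 0.0268, edgeR) and no overlap between the groups. That call was lost in 9 of 20 alternatives, with log2 fold changes from 1.10 to 1.39 and adjusted p from 0.000613 to 0.350. The libraries whose omission lost it were replicates 1, 2 and 3 of vehicle (adjusted p = 0.0977, 0.0628 and 0.132), replicate 3 at 3 μg/kg (0.122) and replicates 1 and 2 at 10 μg/kg (0.0559 and 0.0552). It also rests on the 3 libraries that carried Fabp6, whose part in it was not tested.

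At 30 μg/kg, 1810065E05Rik was called neither in edgeR nor in any of the 20 alternatives, DESeq2 and limma-voom included (background 3.97%). 1810065E05Rik was 1.77 ± 0.243 CPM there (SD, n = 3), a log2 fold change of 0.22 (SE 0.22, adjusted p = 0.614, edgeR) from vehicle, within the spread of its libraries. Cyp1a1 was higher in every library at 30 μg/kg than in any at 10 μg/kg. All 7 genes were lower at 30 μg/kg by choice, so nothing is read from setting them beside Cyp1a1. The 6 other genes had 0 to 15 counts a library in vehicle and at 3 and 30 μg/kg, and none was called there against vehicle.

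The closest relatives of the 7 genes were read beside them, from a list of 31 genes of the same families. At 10 μg/kg against vehicle, 1 of 20 tested relatives was called (background 0.613%), the median log2 fold change was -0.12 against -0.01 over all genes, and 7 of 20 were above 0. That gene was Car2, another cytosolic carbonic anhydrase, with 736, 1134 and 1150 counts at 10 μg/kg against 554, 659 and 542 in vehicle. Car2 had a log2 fold change of 1.19 (SE 0.17, adjusted p = 0.00455, edgeR) and fell by 0.84 from 10 to 30 μg/kg (SE 0.16, adjusted p = 0.0134, edgeR). The latter call was lost without replicate 2 or 3 at 10 μg/kg or replicate 2 at 30 μg/kg, with adjusted p up to 0.0680. Unlike Car1, Car2 was abundant in every library, and its levels at 3 μg/kg (48.4 to 58.7 CPM) overlapped those at 10 μg/kg (53.0 to 82.3 CPM). Car13 and Car3, the next nearest to Car1 in sequence after a pseudogene, were not called, with log2 fold changes of -0.14 (SE 0.15) and -0.29 (SE 0.77).

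For the pumps, Atp1b1, the beta subunit of the sodium-potassium pump, had a log2 fold change of -0.29 (SE 0.32). Atp4a, the gastric counterpart of Atp12a, had 0 to 12 counts per library, and 1, 0 and 3 at 10 μg/kg. Lypd8, an antibacterial surface protein of the gut that is also on the colon list below, was at 1368 ± 120 CPM at 10 μg/kg and 1315 ± 326 CPM in vehicle (SD, n = 3 each). The only transcript match found for 1810065E05Rik was 2210407C18Rik, which is not on the list of relatives. That match was 65.9% identical over 495 of 926 bases, and 2210407C18Rik had 624 to 5035 counts per library. Of the 20 relatives, 0 had their 3 libraries at 10 μg/kg above all 9 others, near the 0.544% of all genes, so nothing is read from it. At 30 μg/kg against vehicle, Mptx2 rose by 2.06 (SE 0.32, adjusted p = 0.00251, edgeR) and Cyp2d26 fell by 1.04 (SE 0.18, adjusted p = 0.00383, edgeR) on the log2 scale, 2 of 20 relatives against 3.97% of all genes. At 3 μg/kg, 0 of 20 were called in edgeR against 0.228% of all genes, with 3 at an unadjusted p under 0.05.

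The label colon-type was examined through 30 other genes known from colonic epithelium, listed with earlier results of these data known. Of these, 20 belong to absorptive and surface cells and 10 to secretory cells or to regional identity, 17 were tested and 13 fell below the filter. Many are not restricted to the colon, and 10 of the 30 averaged at least 10 CPM over the 12 libraries. Clca4b, Lypd8 and Slc26a3, the chloride-bicarbonate exchanger, were the most abundant absorptive genes and did not pass the test at 10 μg/kg (log2 fold changes of -0.03, 0.06 and 0.12). These abundant genes did not share the pattern of the 7.

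The scarce genes of the list were mostly highest at 10 μg/kg. Of 14 listed genes with a mean under 1 CPM over the 12 libraries, 2 had no count at all, and 10 of the 12 others had their highest mean at 10 μg/kg, 1 in vehicle, 0 at 3 μg/kg and 1 at 30 μg/kg. Among all 14564 genes under 1 CPM with a count, 20.5% had their highest mean at 10 μg/kg, against 30.9% in vehicle, 21.5% at 3 μg/kg and 27.0% at 30 μg/kg. No test was made on these counts, and all 12 are shown since the naming rule covered only some. Hoxa13, a posterior Hox gene, had 6, 7 and 8 counts at 10 μg/kg and 0 in the 9 other libraries, which was at least 9.29-fold higher than in vehicle. Hoxb13 had 9, 5 and 16 counts at 10 μg/kg, 3, 0 and 3 in vehicle and 0 at 3 and 30 μg/kg. Both lie at the hindmost end of their Hox clusters.

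Among secretory genes, Best2, a channel of colonic goblet cells, had 13, 5 and 5 counts at 10 μg/kg, 0 in vehicle, 0, 1 and 2 at 3 μg/kg and 0, 0 and 1 at 30 μg/kg. Insl5, a hormone of colonic enteroendocrine cells, had 2, 5 and 2 counts at 10 μg/kg and 0 elsewhere. Retnlb, the goblet cell product resistin-like beta, had 14, 11 and 10 counts at 10 μg/kg, 1, 5 and 0 in vehicle, 0, 2 and 7 at 3 μg/kg and 0 in all 3 libraries at 30 μg/kg. All 3 of these secretory genes had their highest mean at 10 μg/kg, at under 1 CPM.

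Scnn1b, a subunit of the epithelial sodium channel, had 3, 4 and 1 counts at 10 μg/kg and 0 elsewhere, and Scnn1g, another subunit, had 1, 3 and 1 counts there but 6, 0 and 0 at 30 μg/kg. Ly6g, better known as a neutrophil marker, had 2, 1 and 8 counts at 10 μg/kg and 0 elsewhere. Cldn8, a tight junction protein, had 13, 4 and 12 counts at 10 μg/kg, overlapping 10, 0 and 0 in vehicle. Hoxd13 had 2 counts in all, both at 10 μg/kg. The exceptions were Hoxd11, with 4 counts at 10 μg/kg, 10 elsewhere and its highest mean at 30 μg/kg, and Fxyd4, with 1 count at 10 μg/kg, 3 elsewhere and its highest mean in vehicle.

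**Figure D4:**
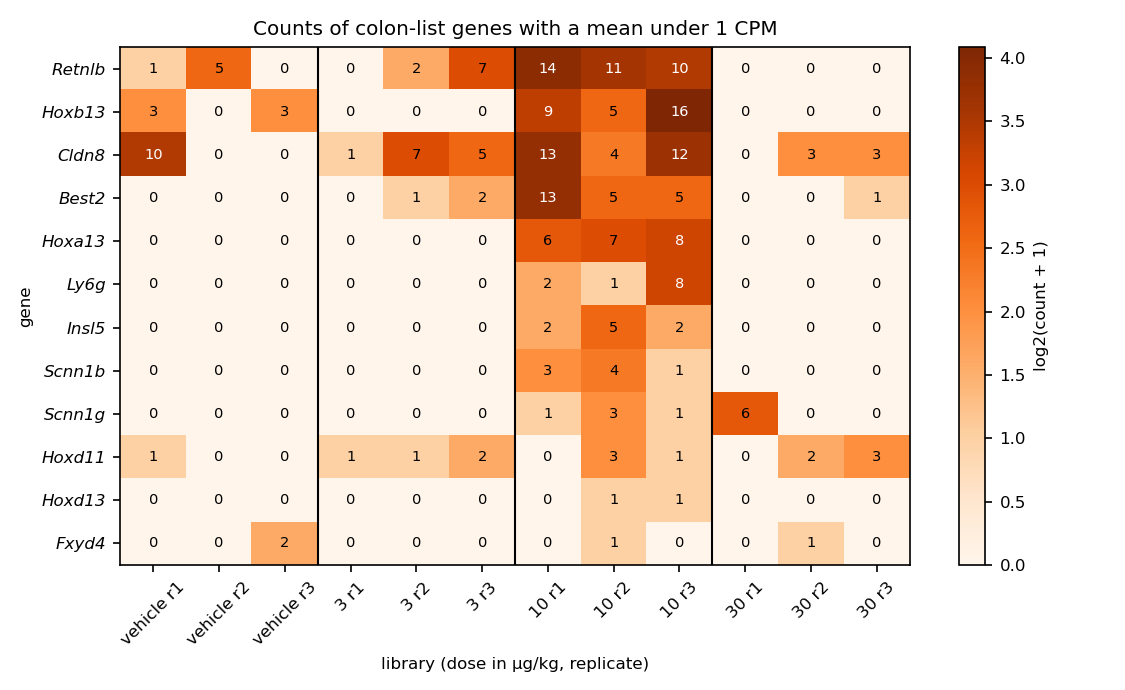
Raw counts (numbers in the cells, colour as log2(count + 1)) of the 12 colon-list genes with a mean under 1 CPM and at least 1 count (y axis), in each of the 12 libraries (x axis, dose in μg/kg and replicate). Of the 12, 9 have a count in all 3 libraries at 10 μg/kg and 5 have none in the 9 others.

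Of the 17 tested genes of the list, 1 was called at 10 μg/kg against vehicle, or 5.88% against a background of 0.613%. The median log2 fold change of the 17 was 0.76, against -0.01 over all genes, and 14 of 17 were above 0, against 48.6% of all genes. An unadjusted p under 0.05, in either direction and not only for rises, was reached by 11 of 17, or 64.7% against 15.9% of all genes. The libraries at 10 μg/kg lay above all 9 others for 3 of 17, or 17.6% against 0.544%. These 17 genes were read in the same libraries that chose the 7, so they are no independent evidence of the label. Of the 17, Retnlb passed the filter only through its counts at 10 μg/kg, so its part in these figures carries no weight. The called gene, Hsd11b2, which inactivates glucocorticoids in aldosterone target cells such as colonic epithelium, had 119, 124 and 119 counts at 10 μg/kg against 48, 87 and 57 in vehicle. Its log2 fold change was 1.34 (SE 0.18, adjusted p = 0.00353, edgeR), and it was called in all 20 alternatives.

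Hsd11b2 was also called at 30 μg/kg against vehicle (1.06, SE 0.18, adjusted p = 0.00391, edgeR), and its lowest value at 10 μg/kg, 7.29 CPM, was just above its highest at 30 μg/kg, 7.11 CPM. Its difference between 10 and 3 μg/kg, a log2 fold change of 1.06 (SE 0.18, adjusted p = 0.0396, edgeR), was the single call of the 17 in that comparison (background 0.158%). That last call was lost in 13 of 20 alternatives, among them the omission of any library at 3, 10 or 30 μg/kg or of replicate 3 of vehicle, with adjusted p up to 0.223. Sult1a1, a sulfotransferase, and Retnlb were the other 2 genes with no overlap, with log2 fold changes at 10 μg/kg of 1.21 (SE 0.35, adjusted p = 0.142, edgeR) and 2.89 (SE 0.86, adjusted p = 0.162, edgeR), neither called.

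Against vehicle, the list behaved otherwise at the other doses. At 3 μg/kg against vehicle, 0 of 17 were called in edgeR, 3 had an unadjusted p under 0.05 and the median log2 fold change was 0.18. Set directly against 3 μg/kg, the list as a whole was not higher at 10 μg/kg. The median of that comparison was -0.028, against -0.015 over all genes, and 8 of 17 were above 0. At 30 μg/kg, 3 were higher and 1 lower than in vehicle, or 23.5% against 3.97% of all genes, but the median was -0.13. The higher ones were Hsd11b2, Selenbp1 (0.87, SE 0.18, adjusted p = 0.0152, edgeR) and the water channel Aqp4 (1.00, SE 0.25, adjusted p = 0.0327, edgeR). Slc5a8, a transporter of short-chain fatty acids, fell by 1.48 (SE 0.29, adjusted p = 0.00898, edgeR). The call of Selenbp1 was lost without replicate 3 of vehicle or replicate 2 at 30 μg/kg, and that of Aqp4 without any 1 library of either group, with adjusted p up to 0.0969.

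From 10 to 30 μg/kg, 3 of 17 were called, all lower at 30 μg/kg (background 2.77%, and 0.607% for lower), with a median of -0.53. Of these 3, Retnlb entered the test only through its counts at 10 μg/kg. Cyp2c55, a cytochrome P450, fell by 1.30 (SE 0.33, adjusted p = 0.0421, edgeR), Gsdmc2, a gasdermin of the gut surface, fell by 1.18 (SE 0.23, adjusted p = 0.0141, edgeR), and Retnlb was at least 13.0-fold higher at 10 μg/kg than at 30 μg/kg. The count was 0 without replicate 1 at 10 μg/kg, 6 without replicate 1 of vehicle, 5 without replicate 1 at 3 μg/kg and 1 without replicate 2 or 3 at 10 μg/kg or replicate 1 or 2 at 30 μg/kg. The 7 genes were lower at 30 μg/kg by choice, and Aqp4, Selenbp1 and Hsd11b2 were not called between the 2 doses.

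**Figure D5:**
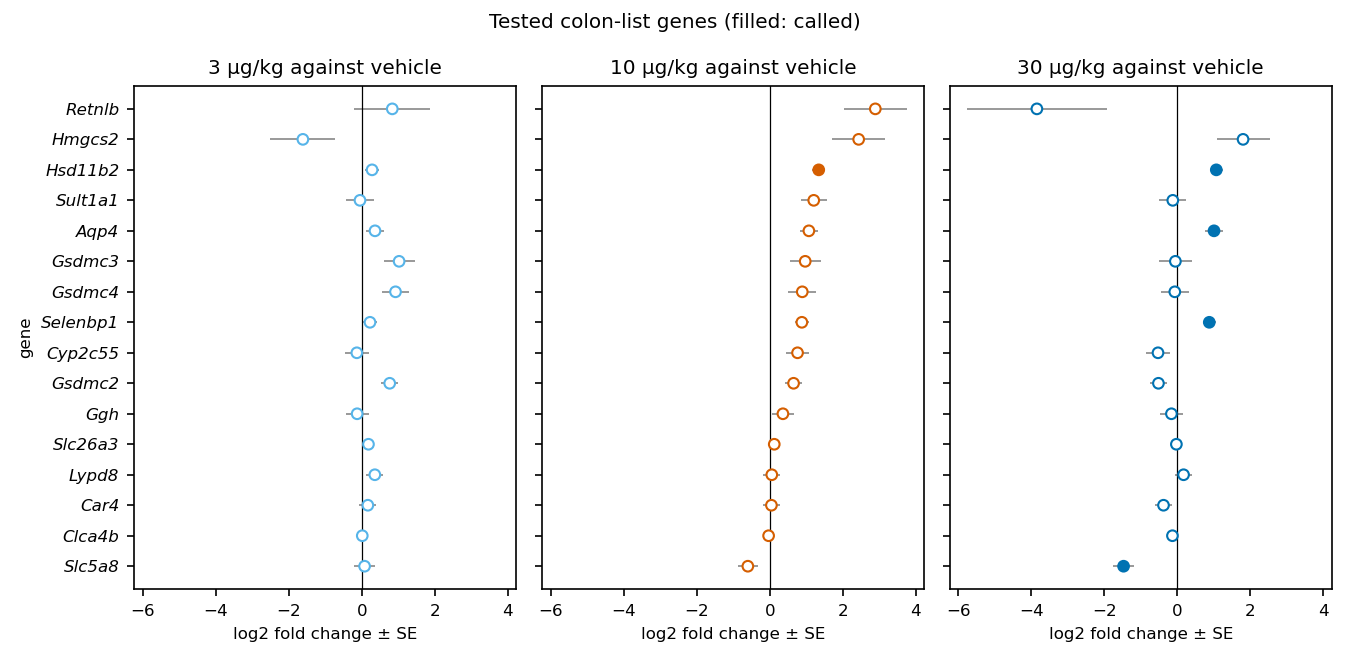
Log2 fold change against vehicle (x axis) with its standard error for 16 of the tested colon-list genes (y axis) at 3, 10 and 30 μg/kg, filled where called. At 10 μg/kg 14 of 16 points lie above 0 with Hsd11b2 called, and at 30 μg/kg 5 of 16 do, with Hsd11b2, Selenbp1 and Aqp4 called higher and Slc5a8 lower.

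Reads found in a single dose group gave a wider view. Over all 46078 genes, 18 had a count in each library at 10 μg/kg and none in the 9 others, against 9 for vehicle, 4 for 3 μg/kg and 8 for 30 μg/kg. With at least 10 counts over the 3 libraries, 8 such genes remained at 10 μg/kg and 0 in each other group. These 8, named after their values were seen, were Car1 (2345 counts in all), Atp12a (77), Lpo (40), Hoxa11os (23), Hoxa13 (21), Hoxa9 (17), Hoxa10 (13) and Ly6g (11). Besides Car1 and Atp12a, 4 of them come from the Hoxa cluster, and Lpo encodes lactoperoxidase, a secreted antibacterial enzyme.

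Genes most like the 7 in pattern were ranked by Pearson correlation over the 12 libraries with the mean of their standardised log2 CPM, among 13790 genes of at least 1 CPM on average. The 12 highest ranged from 0.924 to 0.799, and all 12 had no overlap between the libraries at 10 μg/kg and the rest. St6galnac6, a sialyltransferase, was first, with 95, 134 and 102 counts at 10 μg/kg and 10 to 36 elsewhere, or 7.60 ± 1.86 CPM (SD, n = 3) against group means of 1.01 to 1.31 CPM. Abca12, a lipid transporter of epithelia (0.886), had 38 to 58 counts against 6 to 21, and 2610528A11Rik (0.882) had 45 to 53 against 2 to 17. Slc6a14, an amino acid transporter (0.814), was the most contrasted against vehicle, with a mean of 6.35 CPM at 10 μg/kg, 0.223 CPM in vehicle, 1.41 CPM at 3 μg/kg and 0.0466 CPM at 30 μg/kg.

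The others in that order were Rabgef1, Gm12158, Gm28438, Rffl, Ano1 (a chloride channel), Sult1a1, Mboat1 and Plekhs1. Their contrast was smaller. Rabgef1 was 20.1 CPM at 10 μg/kg against group means of 17.3 to 17.7 CPM, and Plekhs1 1.36 CPM against 0.901 to 0.985 CPM. Unlike Car1, each of the 12 genes had counts in all groups. The ranking was made on the contrast that chose the 7 and gives no test.

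Markers of other sources were read beside the 7 genes at 10 μg/kg, and their part in the result was not tested. Car1 is also a red cell gene, and 7 other red cell genes were chosen after its values were seen. They summed to 0.122 to 0.792 CPM at 10 μg/kg and 0.451 to 0.787 CPM in vehicle. Their sum was 0.292 to 0.528 CPM at 3 μg/kg and 0.204 to 0.978 CPM at 30 μg/kg. Among them Alas2, which starts haem synthesis in red cell precursors, had 7, 3 and 0 counts at 10 μg/kg and 1 to 8 elsewhere. Tgm3 is known from stratified epithelium, whose 6 markers summed to 0 to 1 count per library at 10 μg/kg and 0 to 3 elsewhere. The 7 stomach markers summed to 2 to 5 counts per library at 10 μg/kg and 7 to 14 in vehicle. They summed to 0 to 6 counts at 3 μg/kg and 1 to 2 at 30 μg/kg. Pancreatic acinar markers summed to 1.89 to 2.20 CPM at 10 μg/kg, below the 5.47 to 6.76 CPM of vehicle. That was above the 0.226 to 0.352 CPM at 3 μg/kg and the 0.383 to 1.24 CPM at 30 μg/kg.

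Across the lists of small intestinal and other cell types, 0 genes were called at 10 μg/kg in edgeR among 10 enterocyte, 6 ileal bile acid, 8 Paneth cell, 7 goblet cell, 6 stem and proliferation, 6 B and plasma cell, 5 T cell, 7 smooth muscle, 3 pancreatic, 8 antimicrobial and 9 clock genes tested (background 0.613%). An unadjusted p under 0.05 was reached by 6 of 7 smooth muscle, 4 of 8 Paneth cell, 4 of 5 T cell, 3 of 7 goblet cell, 3 of 3 pancreatic and 2 of 6 stem and proliferation genes, by 1 gene each of the ileal bile acid, B and plasma cell and antimicrobial lists, and by 0 of the enterocyte and clock lists. The 7 smooth muscle genes had a median log2 fold change of -1.93, with 0 of 7 above 0, summing to 285 to 320 CPM at 10 μg/kg and 331 to 535 CPM in vehicle. Mylk made up most of that sum, with 261 to 291 CPM at 10 μg/kg and 281 to 355 CPM in vehicle, so the sum says little about the scarcer genes. The 10 enterocyte markers had a median of -0.22 and summed to 34183 to 41653 CPM at 10 μg/kg, within the range of the other groups. Of 4 AhR targets, 3 were called higher at 10 μg/kg than in vehicle, namely Cyp1a1, Cyp1b1 and Ahrr. From 10 to 30 μg/kg, Cyp1b1, Ahrr and Tiparp were called higher (background 2.77%), and Cyp1a1 was not called.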

How the data were processed

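Ileal epithelial RNA from 12 mice was sequenced, 1 library a sample, and grouped by the dose in the labels. The authors deposited unnormalised read counts, 1 value for each Ensembl gene and library. The submitters' processing notes name FastQC 0.11.3, Trimmomatic 0.33, TopHat2 2.1.0, SAMtools 1.2.0, HTSeq 0.6.1 and DESeq, and the build GRCm38. Annotation release and strand setting are not given in the sources used here. Reads counted as no feature, ambiguous or not uniquely aligned (25.0% to 30.1%, 0.414% to 0.728% and 31.4% to 38.8% of entries) were left out of library sizes.

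Gene symbols came from GENCODE M21 for 45143 of 46078 identifiers. Counts were analysed in R 4.3.3 with edgeR 4.0.16: filterByExpr with a minimum count of 10, TMM scaling, 1 quasi-likelihood fit over all 12 libraries, and Benjamini-Hochberg adjustment over 15823 genes, without covariates. CPM used TMM-scaled library sizes, and log2 CPM a prior count of 2. Folds of pooled counts have exact conditional binomial 95% intervals, against a limit of 3 counts over the group where a group had none. Shares have Wilson 95% intervals. Reads were not molecule-tagged, so intervals cover counting error only. limma 3.58.1 and DESeq2 1.42.0 were alternatives. Transcript identity came from BLAST+ 2.17.0.

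The 7 genes and all lists were chosen with earlier results of these data known. Named from the lists were every called gene, up to 10 a list by smallest adjusted p, and the 3 most abundant, besides the 12 most similar genes by correlation. Lists of other cell types and organs are described by counts and sums only, and genes named outside this rule are so described. Some genes that the rule would name are not reported here.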

Additional observations from a re-analysis of the deposited data

How the results depend on the processing

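Counts of called genes were recomputed under 20 alternatives, the level of the 7 genes under 15, and single genes under those in which they passed the filter. The median log2 difference of the 7 genes at 10 μg/kg from the 9 other libraries, fixed in sign by their choice, was 3.94 and became 5.29 with a prior count of 0.5. The read index is the library barcode, of which each group holds 3 different ones. Under limma-voom, with the read index as a covariate, and with only the 2 groups compared, 0 of the 7 genes were called at 3 μg/kg against vehicle (with only the 2 groups, 1 of the 7 passed the filter), and 0 to 1 when 1 library was left out. For the colon list at 10 μg/kg against vehicle, 5 genes were called with no filter on low counts, 3 with DESeq2, 2 with limma-voom and 2 with only the 2 groups compared, and 1 to 3 when 1 library was left out (3 without replicate 1 at 3 μg/kg, 2 without replicate 3). At 30 μg/kg against vehicle, 2 to 4 were called when 1 library was left out, the 2 without replicate 3 of vehicle or replicate 2 at 30 μg/kg. At 10 against 3 μg/kg, 2 were called with no filter, 0 with at least 10 counts in every library, 2 with DESeq2, 0 with the read index, and 0 to 1 when 1 library was left out. At 30 against 10 μg/kg, 6 were called with no filter, 1 with the read index, 1 with only the 2 groups compared, and 0 to 6 when 1 library was left out. For the family relatives at 10 μg/kg against vehicle, 3 were called with no filter, 3 with DESeq2, 3 with only the 2 groups compared, and 1 to 3 when 1 library was left out (3 without replicate 1 at 3 μg/kg, 2 without replicate 3). The cause of these changes was not tested. Over all genes, 97 were called at 10 μg/kg against vehicle, 215 with no filter, 262 with DESeq2, 59 with the read index and 45 to 198 when 1 library was left out. The called genes of the colon and relatives lists and 1810065E05Rik kept their direction in every alternative in which they were tested.

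No paired analysis was possible because the labels carry no replicate numbers and no source says that libraries with the same barcode share an animal, a litter or a day. At 10 μg/kg, with 13713866 to 15733850 gene counts per library, Atp12a and Cyp2d34 rest on summed counts of 77 and 55. The scarce colon-list genes rest on 1 to 35 there.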
